A study of Mus musculus with 12 samples.

Results

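Macrophage genes were followed through 12 microarrays of cultured mouse cardiac fibroblasts. The 36 genes were chosen by symbol, as genes of resident macrophages, of monocyte-derived macrophages and of macrophages and leukocytes in general. Probe sets were matched through the platform's gene symbols, and where a gene had several, the one with the highest mean would have stood for it. Of the 36 genes, 35 were measured, by 1 probe set each, among 19505 genes tested, and Cd68 was not analysed here. All cultures came from hearts of wildtype C57BL/6J mice, 1 to 7 days old, and were kept for 10 to 14 days until the fibroblasts had become myofibroblasts, the contractile and matrix-secreting form. They then received for 8 h either carrier, 40 nM sCD74 (the soluble form of a receptor for MIF), 8 nM MIF (macrophage migration inhibitory factor, a cytokine), or sCD74 and MIF together at the same doses.

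Each of the 4 treatments had 3 arrays, numbered 1 to 3, and the 4 arrays of a number carry a shared code in their titles. The labels do not say what that code marks, nor whether the numbers are separate isolations of cells. The p-values therefore measure the spread between these arrays, which may be technical, and anything that the arrays of a number share cannot be told apart from the number itself. The labels name no step that removed or selected leukocytes.

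Macrophages are phagocytes that settle in the heart before birth and are later joined by cells from blood monocytes. Resident heart macrophages are known for Lyve1, Folr2, Mrc1 and Cbr2, whereas Ccr2, a chemokine receptor, marks monocytes and the macrophages that newly descend from them. Survival of nearly all macrophages depends on Csf1r, the receptor for the growth factor Csf1, which fibroblasts make, and their identity depends on the transcription factor PU.1, encoded by Spi1.

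Values are log2 intensities as deposited. Array medians lay between 8.01 and 8.14, and the positive controls exceeded the negative ones by a gap, taken here as signal over background, of 3.77 to 4.17 in number 1, 4.06 to 4.25 in number 2 and 3.67 to 4.17 in number 3. The median of the negative controls, taken per array and averaged, was 7.53. Of the 35 macrophage genes, 29 lay above the negative control median of the same array on all 12 arrays. The others were Lyve1, F13a1, Cd163, Ccr2, Cx3cr1 and Coro1a, and where a compared mean fell below 7.53, the comparisons that follow give levels without a size for the difference. Fibroblast genes gave signal too: 9 of 9 measured had means above 7.53. Among them were the collagen gene Col1a1 at 15.94 to 16.38 and the proteoglycan gene Dcn at 17.47 to 17.74 over the 12 arrays. Only 1 of 10 measured endothelial genes and 2 of 8 cardiomyocyte genes had means below 7.53. The count therefore does not single out fibroblasts.

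Most macrophage genes gave a strong signal in these fibroblast cultures. Lyz2, which encodes the lysozyme of macrophages, lay between 16.82 and 17.55, and Mrc1, the mannose receptor, between 16.16 and 16.87, above at least 99.7% of negative control probe sets. Csf1r ran from 12.22 to 14.71 and Adgre1, which encodes the macrophage surface protein F4/80, from 12.14 to 14.07. By contrast, Ccr2 lay between 4.60 and 5.19, above only 5.5% to 11.5% of negative controls, and Cd163, a scavenger receptor for haemoglobin, between 5.90 and 6.29. Intensities of different probe sets are not on a common scale, so these values show signal against the controls and no order between genes. Values above 16, the log2 of the largest number a 16-bit scanner gives, occurred for Mrc1 and Lyz2 on 12 arrays, for Fcgr3 on 5 and for Spi1 on 4.

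The macrophage genes varied more between the 3 replicate numbers than between the 4 treatments. The means of the numbers spanned a median of 1.18 log2 units over the 35 genes, whereas the means of the treatments spanned a median of 0.36, and 34 of the 35 genes had the wider span between numbers. These spans were not taken over all genes, so they do not show whether macrophage genes differ from others in this. For 31 of the 35 genes number 1 had the lowest mean, number 3 stood between and number 2 had the highest, an order found in 21.7% of all genes. The mean deviation of the 35 genes from their own averages was -0.80 to -0.41 on the arrays of number 1, 0.30 to 0.61 in number 2 and -0.17 to 0.19 in number 3, without overlap.

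**Figure D1:**
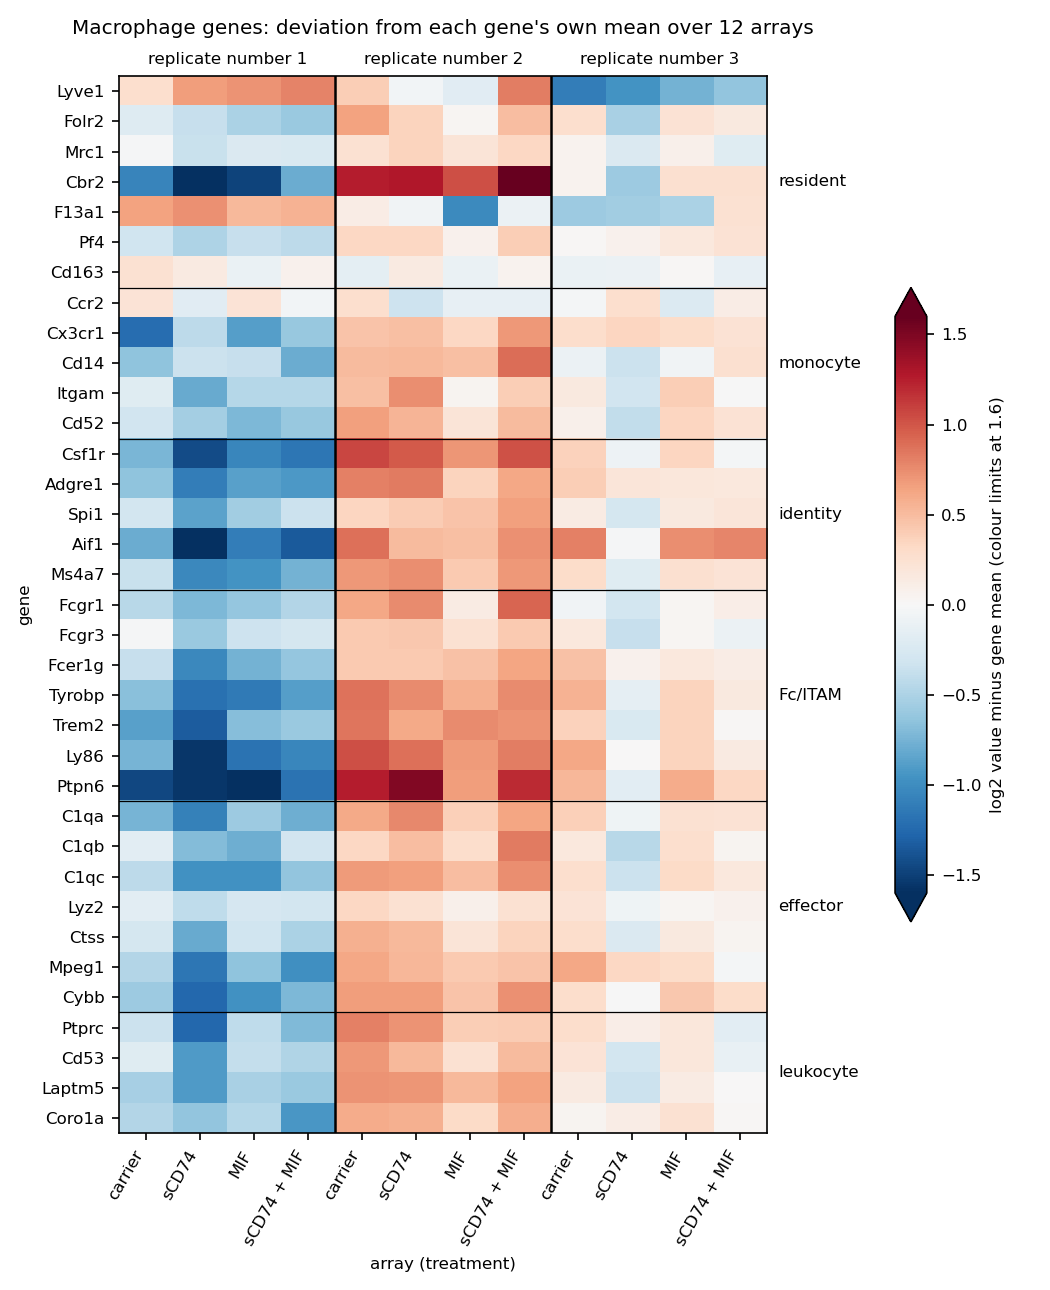
Heat map of the 35 macrophage genes (rows, grouped by role) on 12 arrays (columns, grouped by replicate number and labelled by treatment); colour is the log2 value minus the gene's own mean over the 12 arrays. Number 1 is blue and number 2 red for most genes, number 3 lies between, and Lyve1, F13a1, Cd163 and Ccr2 are the rows that do not follow.

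In number 1, 31 of the 35 macrophage genes were lower than in numbers 2 and 3 and passed the limma test (adjusted p below 0.05), against 9.39% of all genes lower. Lyve1 and F13a1 passed as higher, against 7.03% of all genes, and Cd163 and Ccr2 did not pass. The median log2 difference was -0.93 over the 35 genes and 0.02 over all genes. The 4 arrays of number 1 lay wholly below the 8 others for 23 macrophage genes (5.71% of all genes) and wholly above them for 1, F13a1 (4.1% of all genes). In RNA of whole cultures, fewer cells of a type and less RNA per cell cannot be told apart. That macrophage markers were low in number 1 was known when the genes were chosen, so these counts are not independent of the choice.

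Resident-like genes were the most divided role, with 4 of 7 passing as lower (9.39% of all genes), 2 as higher (7.03%) and a median difference of -0.32. The 4 lower genes lay above the negative control median on all 12 arrays. The 2 higher ones, Lyve1 and F13a1, did not, and neither did Cd163. Cbr2, a carbonyl reductase known from resident macrophages, read 9.30, 8.45, 8.88 and 9.57 in number 1, for carrier, sCD74, MIF and then both proteins (the order used throughout). It read 11.62, 11.64, 11.39 and 12.04 in number 2, and 10.42, 9.78, 10.62 and 10.62 in number 3. No array of one number reached the range of another, and the difference of number 1 from the others was -1.97 ± 0.14 (SE of the limma fit, adjusted p 4.77e-06). Folr2, a folate receptor of resident macrophages, read 9.73, 9.57, 9.43 and 9.35 in number 1, against 10.58, 10.29, 9.97 and 10.43 in number 2 and 10.21, 9.42, 10.17 and 10.10 in number 3. Its number 1 arrays were lower by a smaller step, -0.63 ± 0.14 (adjusted p 0.00756), and overlapped those of number 3 through the sCD74 array.

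Mrc1 moved least of the genes that passed. Its values were 16.50, 16.16, 16.29 and 16.27 in number 1, 16.76, 16.87, 16.73 and 16.85 in number 2, and 16.57, 16.29, 16.60 and 16.33 in number 3. Number 1 was lower by -0.32 ± 0.09 (adjusted p 0.0348), with overlap between numbers 1 and 3. The call was lost when any of 7 single arrays was left out, namely sCD74, MIF or both proteins of number 1, sCD74 or both proteins of number 2, and carrier or MIF of number 3. The highest adjusted p was 0.133, without the sCD74 array of number 1. The genes with values above 16 had small differences in general: Mrc1, Lyz2, Fcgr3 and Spi1 lay between -0.77 and -0.32, whereas differences among the other 31 genes reached -2.21. Whether the top of the intensity scale compresses these differences was not tested. Pf4, a platelet chemokine that resident macrophages also make, was lower in number 1 by -0.60 ± 0.09 (adjusted p 0.000736).

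The 3 remaining resident-like genes were near the negative controls. Lyve1, the hyaluronan receptor that marks a perivascular subset of resident macrophages and also lymphatic endothelium, read 7.30, 7.70, 7.75 and 7.83 in number 1. It read 7.42, 6.99, 6.85 and 7.85 in number 2 and 5.93, 6.08, 6.28 and 6.40 in number 3. Number 3 lay wholly below both other numbers, and number 1 passed as higher (adjusted p 0.000825), opposite to Folr2 and Cbr2. F13a1, which encodes a subunit of coagulation factor XIII and is found in resident macrophages, read 8.47, 8.56, 8.35 and 8.39 in number 1 and 6.81 to 8.08 on the 8 other arrays. It passed as higher too (adjusted p 0.00288), without overlap. Cd163 read 6.29, 6.20, 5.95 and 6.12 in number 1, 5.90, 6.20, 5.94 and 6.11 in number 2, and 5.95, 5.96, 6.07 and 5.92 in number 3, with overlap throughout (adjusted p 0.384). Lymphatic endothelial genes, chosen after these values were seen and given as levels only, numbered 6, all measured. Their means in numbers 1, 2 and 3 were 7.71, 7.79 and 7.61 for Prox1, 8.42, 7.76 and 7.75 for Flt4, and 12.77, 12.09 and 12.59 for Pdpn. They were 8.50, 8.32 and 8.19 for Ccl21a, 5.71, 5.27 and 5.30 for Mmrn1, and 6.41, 6.34 and 6.32 for Reln. The means of Flt4, Ccl21a and Reln had the same order of numbers as Lyve1, an order found in 18.6% of all genes. Flt4 had numbers 2 and 3 nearly level, and Reln lay below the negative control median on every array. The part of lymphatic endothelial cells in the Lyve1 values was not tested.

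**Figure D2:**
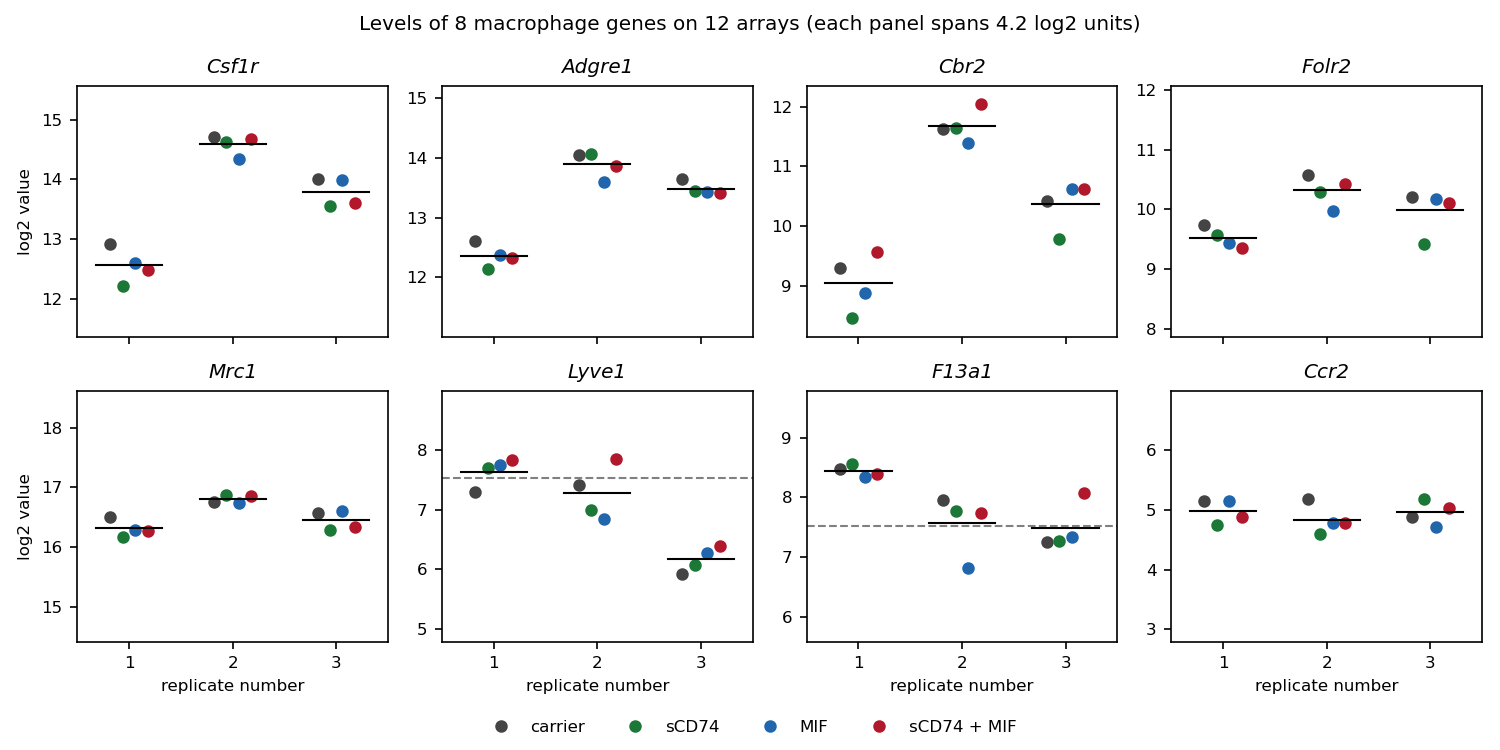
Log2 values of 8 macrophage genes on 12 arrays, by replicate number (x axis); each point is 1 array, coloured by treatment, bars are means of the 4 arrays of a number, and the dashed line is the mean negative control median of 7.53. Csf1r, Adgre1 and Cbr2 separate number 1 from the others, Mrc1 and Folr2 have lower means in number 1 but overlap number 3, and Lyve1, F13a1 and Ccr2 do not fall in number 1.

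Among monocyte-associated genes 4 of 5 passed as lower in number 1 (9.39% of all genes), with a median of -0.81, and the exception was Ccr2. A separate list of 10 measured monocyte genes, given below, did not follow: 1 passed as lower and 3 as higher (7.03% of all genes). Ccr2 read 5.15, 4.75, 5.15 and 4.88 in number 1, 5.19, 4.60, 4.79 and 4.79 in number 2, and 4.89, 5.19, 4.71 and 5.04 in number 3, with overlap everywhere (adjusted p 0.717). The signal of the Ccr2 probe set was thus at background in every number. From 1 probe set, the presence or absence of monocyte-derived macrophages cannot be told. Cx3cr1, the fractalkine receptor, read 6.93, 7.74, 7.27 and 7.55 in number 1, 8.61, 8.63, 8.49 and 8.85 in number 2, and 8.44, 8.50, 8.45 and 8.39 in number 3. Number 1 lay below all other arrays (adjusted p 3.66e-05) and around the negative controls. Cd14, the co-receptor for bacterial lipopolysaccharide, differed by -0.81 ± 0.13, Cd52, a leukocyte surface peptide, by -0.82 ± 0.13 and Itgam, the integrin chain CD11b, by -0.71 ± 0.15.

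All 5 identity genes were lower in number 1 without overlap (5.71% of all genes), with a median of -1.33. Csf1r read 12.92, 12.22, 12.60 and 12.49 in number 1, 14.71, 14.63, 14.35 and 14.67 in number 2, and 14.01, 13.56, 13.99 and 13.61 in number 3. The difference of number 1 was -1.64 ± 0.11 (adjusted p 3.93e-06), and numbers 2 and 3 were apart as well. Adgre1 read 12.60, 12.14, 12.37 and 12.33 in number 1, against 14.05, 14.07, 13.60 and 13.86 in number 2 and 13.64, 13.44, 13.43 and 13.41 in number 3. That step of -1.33 ± 0.10 (adjusted p 6.06e-06) stood between the first and the other two numbers, which overlapped each other. Aif1, the calcium-binding protein Iba1, had the smallest p of all macrophage genes in this comparison. Its values were 10.99, 10.12, 10.68 and 10.44 in number 1, 12.66, 12.29, 12.27 and 12.51 in number 2, and 12.59, 11.77, 12.53 and 12.56 in number 3, a difference of -1.84 ± 0.11 (adjusted p 2.06e-06). Spi1 read 15.42, 14.85, 15.15 and 15.37 in number 1, 16.05, 16.11, 16.16 and 16.36 in number 2, and 15.84, 15.43, 15.87 and 15.90 in number 3. Its step was the smallest of the role, -0.77 ± 0.10 (adjusted p 0.000195), and the sCD74 array of number 3 came within 0.01 of the carrier array of number 1. Ms4a7, a membrane protein of macrophages, was lower by -1.17 ± 0.11.

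The next role was named for Fc receptors and ITAM signalling, ITAM being the tyrosine motif through which receptors for antibodies signal. Its genes passed as lower in number 1 in 7 of 7 (9.39% of all genes), with a median of -1.30. Ptpn6, the phosphatase SHP-1 that restrains this signalling, had the widest difference of the 35 genes, -2.21 ± 0.16 (adjusted p 6.06e-06), with 8.72 to 9.24 in number 1 and 10.25 to 11.91 elsewhere. Ly86, the MD-1 partner of a Toll-like receptor homologue, was grouped here although it is neither an Fc receptor nor an ITAM partner. Its values were 12.75, 11.94, 12.32 and 12.46 in number 1, 14.53, 14.38, 14.18 and 14.32 in number 2, and 14.12, 13.50, 13.85 and 13.64 in number 3. The numbers did not overlap, and number 1 differed by -1.70 ± 0.11 (adjusted p 2.11e-06). Fcgr3, a low-affinity Fc receptor, read 15.86, 15.28, 15.54 and 15.60 in number 1, 16.29, 16.30, 16.12 and 16.29 in number 2, and 16.04, 15.50, 15.90 and 15.78 in number 3. It overlapped between numbers 1 and 3 and differed by -0.46 ± 0.10 (adjusted p 0.00735). The adaptor Tyrobp (DAP12) was lower by -1.45 ± 0.10 and Trem2, the lipid receptor that signals through it, by -1.30 ± 0.11. Fcer1g, the common gamma chain of Fc receptors, was lower by -1.04 ± 0.10 and Fcgr1, the high-affinity receptor, by -0.84 ± 0.12.

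Complement, lysosome and effector genes passed as lower in 7 of 7 (9.39% of all genes), with a median of -1.12. Cybb, the catalytic subunit of the phagocyte NADPH oxidase, read 13.68, 13, 13.29 and 13.54 in number 1, 14.92, 14.92, 14.71 and 14.99 in number 2, and 14.54, 14.25, 14.69 and 14.55 in number 3. Number 1 lay below every other array, with a difference of -1.32 ± 0.11 (adjusted p 1.2e-05). The genes of the 3 chains of complement C1q differed in step: C1qa by -1.20 ± 0.11, C1qc by -1.12 ± 0.11 and C1qb by -0.74 ± 0.14. C1qb read 14.88, 14.35, 14.27 and 14.74 in number 1, 15.38, 15.54, 15.33 and 15.88 in number 2, and 15.22, 14.60, 15.32 and 15.09 in number 3, with overlap between numbers 1 and 3. Mpeg1, a pore-forming protein of phagosomes, was lower by -1.22 ± 0.11, the lysosomal protease gene Ctss by -0.72 ± 0.11 and Lyz2 by -0.43 ± 0.08.

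All 4 leukocyte-wide genes passed as lower (9.39% of all genes), with a median of -0.94. Laptm5, a lysosomal membrane protein of blood cells, read 14.61, 14.24, 14.62 and 14.55 in number 1, 15.86, 15.85, 15.66 and 15.79 in number 2, and 15.29, 14.80, 15.27 and 15.15 in number 3. The numbers were apart, and number 1 differed by -0.95 ± 0.10 (adjusted p 4.7e-05). Cd53, a tetraspanin, read 14.35, 13.64, 14.17 and 14.07 in number 1, 15.24, 15.07, 14.79 and 15.06 in number 2, and 14.77, 14.25, 14.73 and 14.43 in number 3, with overlap through the carrier array of number 1 and a difference of -0.74 ± 0.11 (adjusted p 0.000805). Ptprc, which encodes the leukocyte antigen CD45, was lower by -1.02 ± 0.14. Coro1a, an actin regulator, passed as lower too (adjusted p 9.27e-05), from a mean of 7.34 in number 1, below the negative controls.

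**Figure D3:**
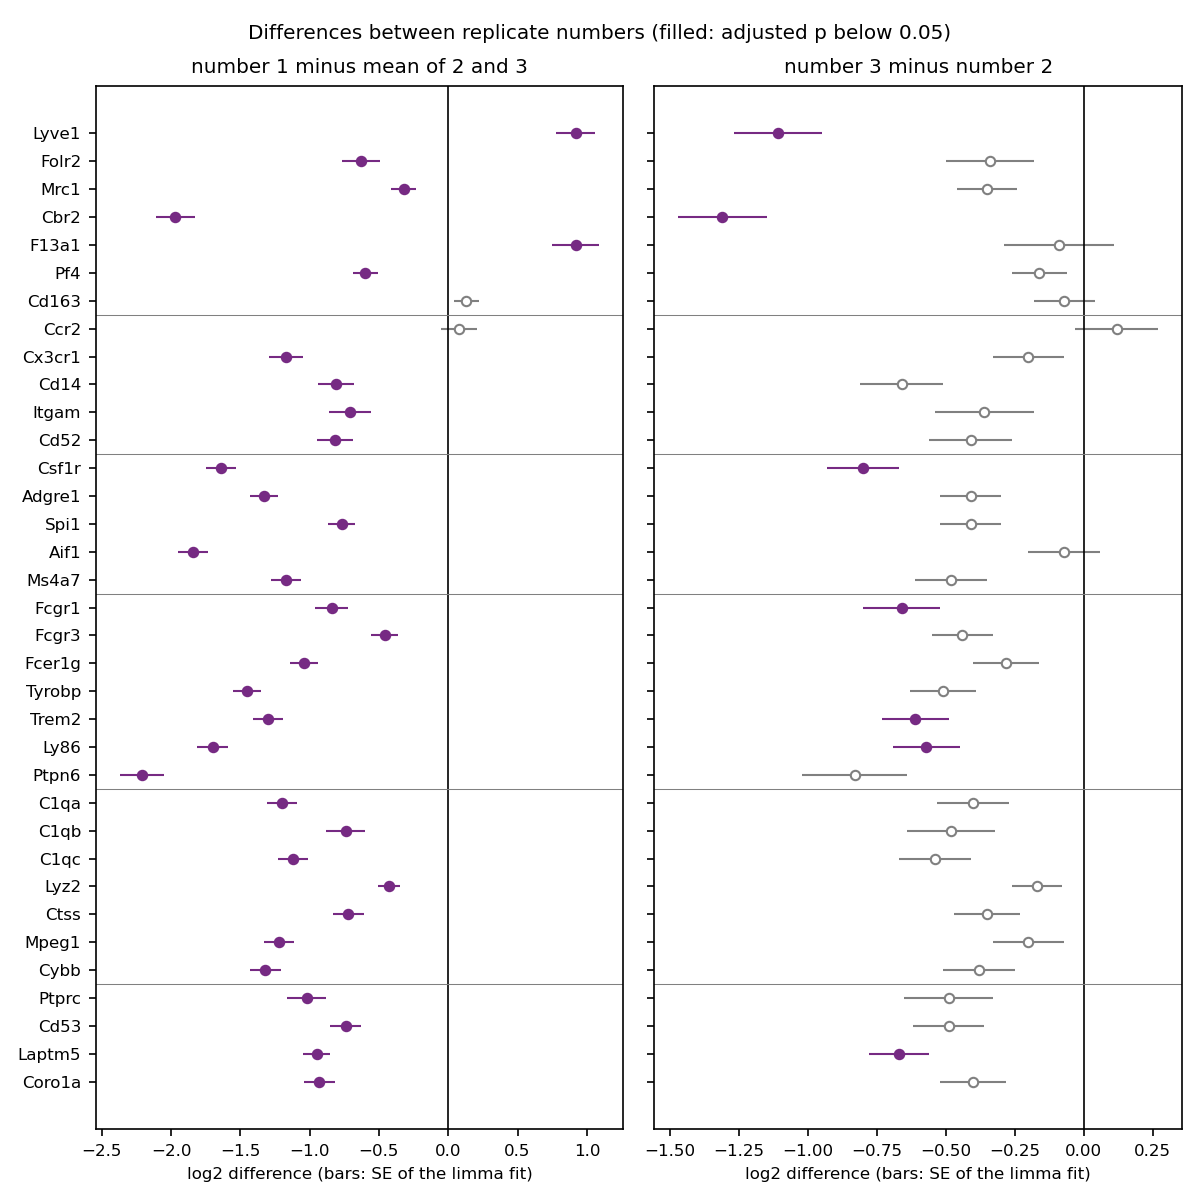
Log2 differences of the 35 macrophage genes between replicate numbers, number 1 minus the mean of 2 and 3 (left) and number 3 minus number 2 (right); points are limma estimates, bars their standard errors, filled points have an adjusted p below 0.05. On the left 31 points are filled below 0 and Lyve1 and F13a1 above it, and on the right 34 lie below 0 and 7 are filled; sizes for Lyve1, F13a1, Cd163, Ccr2, Cx3cr1 and Coro1a lie near background.

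Promoter sequence was looked up because these genes moved together between numbers, and because PU.1 binds a purine-rich core. RefSeq promoters of the assembly GRCm38.p6 were found for 27 of the 35 genes, as 33 promoters, and the 250 bases before each start were searched on both strands. The core GAGGAAG was found in 11 of 33 (33.3%), in the genes C1qc, Cbr2, F13a1, Fcgr1, Fcgr3, Itgam, Laptm5, Mrc1, Pf4 and Trem2, and in 3486 of 32851 promoters of all genes (10.6%). The core TATAAA was found in 3 of 33 (9.09%) and in 12.4% of all. A match is a stretch of letters and not a shown binding site, and F13a1, which was not lower in number 1, held it as well. From each role the gene with the smallest p in number 1 was taken, among genes with a promoter. Of these, Cbr2 and Laptm5 hold the core, whereas Aif1, Ly86, Cybb and Cx3cr1 do not. 3 promoters are printed, 5′ to 3′ on the strand of the gene: Cbr2 and Laptm5, and Aif1 as the gene with the smallest p overall. Capitals mark GAGGAAG or its reverse complement CTTCCTC, and TATAAA, and positions count back from -1, the base before the start.
Cbr2, chr11:120732022-120732271, minus strand: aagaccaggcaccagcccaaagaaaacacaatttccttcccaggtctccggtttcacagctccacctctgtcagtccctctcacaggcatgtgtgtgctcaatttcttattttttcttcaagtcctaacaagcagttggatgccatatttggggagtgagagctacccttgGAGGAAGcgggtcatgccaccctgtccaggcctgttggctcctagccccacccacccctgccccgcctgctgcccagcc
Laptm5, chr4:130913066-130913315, plus strand: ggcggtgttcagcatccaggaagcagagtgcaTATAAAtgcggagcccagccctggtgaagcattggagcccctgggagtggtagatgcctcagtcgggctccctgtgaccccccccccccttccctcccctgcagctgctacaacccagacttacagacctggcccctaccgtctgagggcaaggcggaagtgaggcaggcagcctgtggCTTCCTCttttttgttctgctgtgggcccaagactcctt
Aif1, chr17:35176053-35176302, minus strand: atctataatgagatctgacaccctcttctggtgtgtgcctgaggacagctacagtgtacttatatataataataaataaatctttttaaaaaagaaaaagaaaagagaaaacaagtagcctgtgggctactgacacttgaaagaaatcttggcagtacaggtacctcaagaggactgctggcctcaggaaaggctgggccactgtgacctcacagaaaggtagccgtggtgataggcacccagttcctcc
Cbr2 holds GAGGAAG from position -79, and Laptm5 holds the core on the opposite strand from -39 and TATAAA from -218. The Aif1 stretch holds neither string.

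Number 3 was lower than number 2 in 34 of the 35 macrophage genes (51.6% of all genes), and 7 passed the limma test as lower, against 0.708% of all genes; none passed as higher (0.441% of all genes). The median difference was -0.41, and -0.01 over all genes. The 4 arrays of number 3 lay wholly below those of number 2 for 21 macrophage genes (4.94% of all genes). Cbr2 differed by -1.31 ± 0.16 (adjusted p 0.00212), Csf1r by -0.80 ± 0.13 (adjusted p 0.0151) and Laptm5 by -0.67 ± 0.11 (adjusted p 0.0177). Fcgr1 followed with -0.66 ± 0.14, Trem2 with -0.61 ± 0.12 and Ly86 with -0.57 ± 0.12. Lyve1 passed with means of 6.17 in number 3 and 7.28 in number 2 (adjusted p 0.00801), both below the negative controls. Aif1, which had the smallest p for number 1, differed by -0.07 ± 0.13 here (adjusted p 0.87). The number of calls was unsteady: 2 of the 7 passed without the carrier or the sCD74 array of number 3, without the sCD74 array of number 2, or without the array of both proteins of number 2 or 3. It was 3 without the carrier array of number 2, 4 without the MIF array of number 1, 13 without dim genes and 19 with a trended and robust variance.

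Many genes of further macrophage lists, none of them among the 36, were lower in number 1 as well. Which cells of the cultures made these transcripts was not tested. Of 11 further resident macrophage genes, 7 passed as lower (9.39% of all genes) and 0 as higher (7.03% of all genes), with a median of -0.31. Stab1, a scavenger receptor, differed by -1.16 ± 0.09, Maf, a transcription factor of mature macrophages, by -0.78 ± 0.10 and Mertk, a receptor for dying cells, by -0.79 ± 0.12. Fcna, a ficolin, Gas6, Igf1 and Selenop passed as lower by smaller differences, from -0.63 to -0.31. Of 9 lipid-associated genes 7 passed as lower (9.39% of all genes), among them Plin2, a lipid droplet protein, by -0.91 ± 0.09. Timd4 and Vsig4, further markers of resident macrophages, had means below 7.53 over the 12 arrays. Of 13 measured growth factors and regulators of macrophages 4 passed as lower (Csf3r, Cebpa, Tgfbr1 and Irf8) and 0 as higher. The shares of all genes were again 9.39% and 7.03%. The growth factor gene Csf1 itself had means of 16.41 ± 0.17 in number 1, 16.41 ± 0.18 in number 2 and 16.39 ± 0.20 in number 3 (SD, n = 4). In number 3 against number 2, Maf (-0.69 ± 0.11) and Fcna (-0.66 ± 0.12) of the further resident genes passed as lower, against 0.708% of all genes.

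Most genes of other leukocytes lay below the negative controls. In the monocyte list 6 of 10 genes had means below 7.53, in the neutrophil list 7 of 8, in the dendritic cell list 7 of 8, in the T and NK cell list 7 of 9, in the B cell list 5 of 5 and in the mast cell list 4 of 6. Of the others, Ace and Plac8 (monocyte list), Ccr7 (dendritic cell list), Cd4 (T and NK cell list) and Kit (mast cell list) lay above the negative control median on all 12 arrays. Ace, the angiotensin-converting enzyme that endothelial cells also make, ran from 12.61 to 13.17 and did not pass in number 1 (adjusted p 0.878). Cd4 ran from 9.87 to 10.98 and did not pass either (adjusted p 0.244). No neutrophil, T and NK cell or B cell gene passed in number 1, where 1, 2 and 2 of them had an unadjusted p below 0.05, all higher, against 14.4% of all genes higher. In the monocyte list Itgal passed as lower (9.39% of all genes) and Ly6c1, Ly6c2 and Plac8 as higher (7.03% of all genes). Ly6c1, which endothelial cells also express, had means of 9.17 ± 0.38, 7.55 ± 0.22 and 7.74 ± 0.32 in numbers 1, 2 and 3, and a difference of 1.52 ± 0.15. Flt3 of the dendritic cell list passed as higher, at a mean below the controls. Kit of the mast cell list passed as higher by 2.04 ± 0.09, while Cpa3, a mast cell protease gene, had means of 7.81, 7.80 and 7.47.

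Other cell types moved with the numbers in their own ways. Endothelial genes passed as higher in number 1 in 7 of 10 (7.03% of all genes) and as lower in 1 (9.39%), with a median of 1.59. Cdh5, the endothelial cadherin, had means of 14.42 ± 0.15, 11.08 ± 0.21 and 12.41 ± 0.38 in numbers 1, 2 and 3, and Emcn 12.02 ± 0.05, 9.18 ± 0.05 and 10.20 ± 0.31, the reverse of the macrophage order. Their mean deviation was 0.86 to 0.98 on the arrays of number 1, -0.84 to -0.73 in number 2 and -0.32 to 0.04 in number 3. Cardiomyocyte genes had 0.36 to 0.66 and 0.57 to 0.67 in numbers 1 and 2 and -1.22 to -1.06 in number 3. There 6 of 8 passed as lower than in number 2 (0.708% of all genes). Fibroblast genes had 0 of 9 calls in number 1 (16.4% of all genes in either direction), with a median of 0.11. Of the 9, 2 had an unadjusted p below 0.05, both higher (14.4% of all genes). Contractile genes passed as higher in number 1 in 4 of 6 (7.03% of all genes). The part of these cell types and of the control gap in the macrophage differences was not tested.

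**Figure D4:**
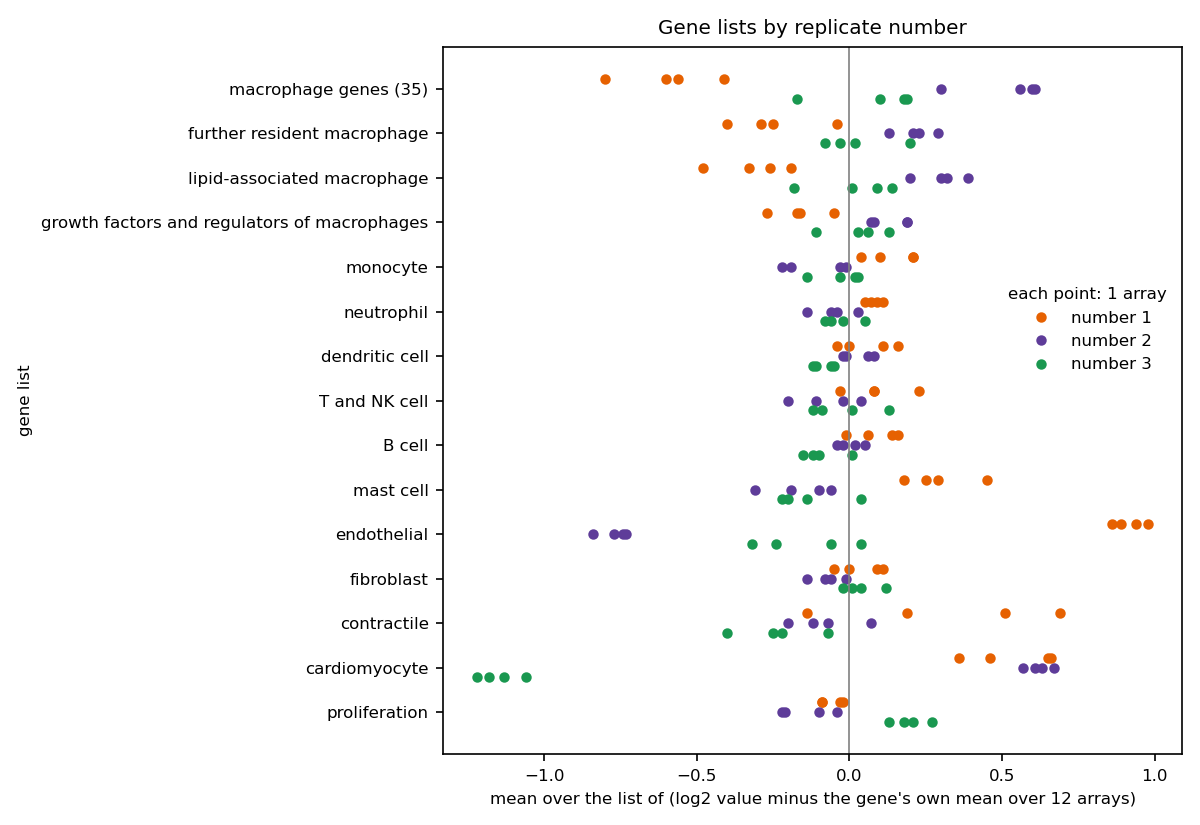
Mean deviation of gene lists (rows) from the genes' own means over 12 arrays, in log2 units; each point is 1 array, coloured by replicate number. Macrophage genes run from number 1 up to number 2 and endothelial genes the other way, cardiomyocyte genes set number 3 apart at -1.22 to -1.06, and fibroblast genes stay between -0.14 and 0.12.

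The comparisons of treatments ask whether sCD74, MIF or both changed macrophage transcripts within 8 h. No macrophage gene passed in any of the 3 comparisons with carrier, and neither did any of the 19505 genes (0% in limma's test). None of the 35 had an unadjusted p below 0.05 either, against 1.79% of all genes for sCD74, 3.35% for MIF and 4% for both. The median standard error of a difference was 0.42 for the macrophage genes and 0.17 over all genes, since the spread between numbers enters it, and a fit that blocks on the replicate number brought it to 0.15. The errors printed with the treatment differences that follow come from the fit without the block, so they include that spread. All 3 comparisons share the carrier arrays, so their values are not independent of each other.

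With sCD74, 31 of 35 macrophage genes lay below carrier without passing (50% of all genes), with a median of -0.31. Within the numbers the medians were -0.47, -0.02 and -0.44. Below the carrier array lay 31, 20 and 28 genes (48.8%, 50.9% and 51.6% of all genes), so that numbers 1 and 3 gave the difference and number 2 did not. Aif1 had the largest one, -0.69 ± 0.71, with carrier arrays at 10.99, 12.66 and 12.59 and sCD74 arrays at 10.12, 12.29 and 11.77, lower in each number. Ly86 followed with -0.53 ± 0.68, from 12.75, 14.53 and 14.12 to 11.94, 14.38 and 13.50. In the fit with the block the standard errors were 0.15 for Aif1 and 0.14 for Ly86. Cbr2 differed by -0.49 ± 0.87 and was not lower in number 2. With the block, 17 of the 35 genes had an unadjusted p below 0.05, all lower, against 2.66% of all genes lower, and none passed after adjustment (smallest adjusted p 1). In number 1 the sCD74 array was the lowest of the 4 for 24 of 35 genes (22.4% of all genes), in number 3 for 25 (28.5%) and in number 2 for 3 (23.2%). The sCD74 array of number 3 is also the one with the smallest control gap of all, 3.67, whose part was not tested. Leaving out the sCD74 array of number 1 moved the median to 0.07, with 14 of 35 genes below carrier, and leaving out that of number 2 moved it to -0.67.

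With MIF, 31 of 35 macrophage genes lay below carrier (47.3% of all genes), with a median of -0.19, and none passed. Here number 2 had the most: 32 genes below the carrier array with a median of -0.28, against 27 and -0.23 in number 1 and 18 and -0.01 in number 3. Of all genes, 46.8%, 51.6% and 49% lay below the carrier array in numbers 1, 2 and 3. The MIF array was the lowest of number 2 for 30 of 35 genes (29.2% of all genes). Ly86 differed by -0.35 ± 0.68, from carrier values of 12.75, 14.53 and 14.12 to 12.32, 14.18 and 13.85. Folr2 differed by -0.32 ± 0.32 and Tyrobp by -0.32 ± 0.59. F13a1 had the widest gap, with means of 7.89 for carrier and 7.50 for MIF, the latter below the negative controls, and 6.81 on the MIF array of number 2. With the block 3 genes had an unadjusted p below 0.05, against 3.01% of all genes lower. Without the MIF array of number 1 the median was 0.14, and without the carrier array of that number -0.44.

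With both proteins, 24 of 35 macrophage genes lay below carrier (49.7% of all genes), with a median of -0.12, and none passed. The medians within numbers 1, 2 and 3 were -0.23, -0.04 and -0.13, with 30, 19 and 25 genes lower (48.8%, 52% and 48.5% of all genes). Mpeg1 differed by -0.44 ± 0.48, from 14.33, 15.41 and 15.41 to 13.81, 15.25 and 14.76. Ptprc differed by -0.40 ± 0.45, from 11.21, 12.36 and 11.83 to 10.85, 11.96 and 11.38. Both were lower in each number, while Lyve1 and Cbr2 were higher in each. Lyve1 had means of 6.88 ± 0.83 for carrier and 7.36 ± 0.83 for both proteins (SD, n = 3), below the negative controls. With the block, 3 genes had an unadjusted p below 0.05 as lower and 1 as higher, against 3.85% and 4.38% of all genes. The median ran from -0.39 without the array of both proteins of number 2 to 0.23 without that of number 1.

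Genes lower than carrier in all 3 numbers were 15 for sCD74 (13% of all genes), 13 for MIF (12.7%) and 14 for both (13.3%). All 3 counts compare with the same carrier arrays. The carrier array was the highest of its number for 24, 16 and 17 of 35 genes in numbers 1, 2 and 3 (27.4%, 25.1% and 23.2% of all genes).

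**Figure D5:**
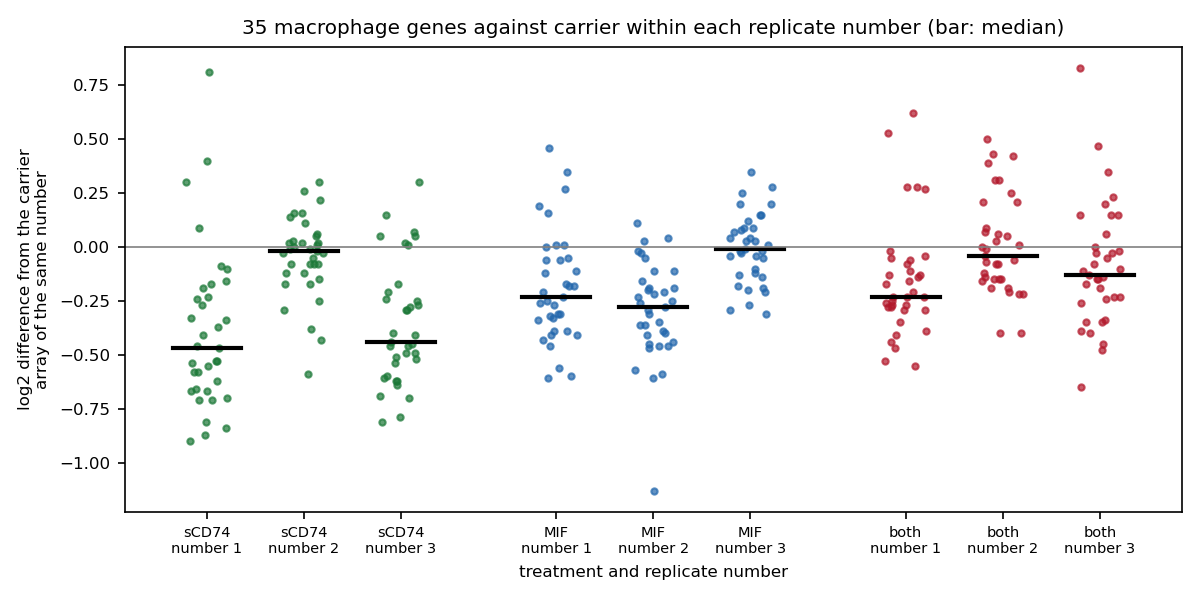
Log2 difference of each of the 35 macrophage genes from the carrier array of the same replicate number, for sCD74, MIF and both proteins; each point is 1 gene on 1 array and bars are medians. The medians lie at -0.47, -0.02 and -0.44 for sCD74, -0.23, -0.28 and -0.01 for MIF and -0.23, -0.04 and -0.13 for both, so none of the treatments gives one step in all numbers.

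The last comparison asks whether both proteins together differ from the sum of their single effects. The departure is the difference of both from carrier minus the differences of sCD74 and of MIF. It lay above 0 in 32 of 35 macrophage genes (49.1% of all genes) with a median of 0.36, and no macrophage gene and none of all genes (0%) passed or, among the 35, had an unadjusted p below 0.05 (1.86% of all genes). Cbr2 had a departure of 0.94 ± 1.23, Aif1 of 0.70 ± 1.00 and C1qb of 0.59 ± 0.52, while F13a1 lay near background. With the block 9 of the 35 genes had an unadjusted p below 0.05, all higher, against 2.02% of all genes higher, and none passed. This value is built from the same arrays as the single comparisons, and its median was 0.01 without the sCD74 array of number 1 and 0.71 without that of number 2.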

How the data were processed

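RNA of 12 cultures was hybridised to Affymetrix whole-transcript arrays, from 150 ng of total RNA per the labels' protocols. The deposited log2 values were made by the authors with RMA in Affymetrix Expression Console and Transcriptome Analysis Console per the submitters' processing notes, with no versions or build given in the sources used here. RMA equalises the arrays, which can hide a global shift. Values above 16 mean that the scale may have been changed after scanning, so sizes are log2 units of the deposited values. Of 28846 probe sets, 6640 controls were left out, and 19572 of the other 22206 had 1 gene symbol, for 19505 genes.

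Groups came from the sample labels. Linear models were fitted to every gene (limma 3.58.1, R 4.3.3), with two-sided moderated tests, with Benjamini-Hochberg adjustment over all genes per comparison and a threshold of 0.05. Treatments were compared from 4 group means over 12 arrays, and replicate numbers with treatment as a term. Errors of differences are standard errors of the fit. The shared code in the titles was taken to pair the arrays of a number. As a check, each array's deviation from its treatment mean was correlated across genes with that of other arrays: r was 0.0971 to 0.647 (median 0.433) within a number and -0.544 to 0.175 between numbers. Figures were drawn with matplotlib 3.10.9 in Python 3.11.15.

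The macrophage genes, the other lists and the tests were chosen with earlier results of these data known. Values on every array are given for Lyve1, Folr2, Mrc1, Ccr2, Csf1r and Adgre1, for the genes of each role with the smallest and largest p between number 1 and the others, and in part for the 3 genes with the largest difference per treatment. A planned choice of genes by their correlation with the other macrophage genes is not given, since the arrays fall into 3 separate sets. Giving no sizes below the negative controls in the account of the comparisons was decided after the results were seen. Alternatives were other scalings, probe set averages, a filter on dim genes, a trended and robust variance, the replicate block, no treatment terms and leaving out arrays. Scanner files were not used here. No gene shared identical values with another among the 35.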

Additional observations from a re-analysis of the deposited data

Results flagged for a closer look

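In each replicate number, the highest or lowest of the 4 arrays was set against the other 3 for each macrophage gene, and 10 of 105 such groups had an array far from the others by Dixon's ratio of gap to range at its 95% limit. For independent groups, chance gives about 1 in 20. These groups share arrays, and the genes moved together between numbers, so the groups are not independent. The count therefore cannot show whether such arrays were more frequent than chance gives.

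The sCD74 array of number 3 was the lowest for 4 genes: Folr2 at 9.42 (nearest array 10.10), Spi1 at 15.43 (15.84), Aif1 at 11.77 (12.53) and Ms4a7 at 14.38 (14.79). It had the smallest control gap, 3.67. The MIF array of number 2 was the lowest for 3 genes: Ms4a7 at 14.99 (15.26), Fcgr3 at 16.12 (16.29) and Coro1a at 8.27 (8.53).

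The array of both proteins was the highest for F13a1 in number 3 at 8.08 (7.33) and for Cd14 in number 2 at 9.37 (the other 3 at 8.96 to 9). The carrier array was the highest for Adgre1 in number 3 at 13.64 (13.44).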

How the results depend on the processing

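Between number 1 and the others, 32 or 33 macrophage genes passed under every alternative run, and the median stayed between -0.99 and -0.83 when single arrays were left out. The count over all genes, 3204, was 2079 without the sCD74 array of number 1 and up to 3063 without another array. Between numbers 3 and 2 the calls moved more: 7 macrophage genes and 224 of all genes became 13 and 510 without dim genes, and 19 and 734 with a trended and robust variance. Leaving out single arrays gave 2 to 8 macrophage genes, 59 to 227 of all genes and medians from -0.52 to -0.32. The cause was not tested.

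With the replicate number as a block, no treatment comparison called a gene, the medians of -0.31, -0.19, -0.12 and 0.36 were the same by construction, and the median standard error of the macrophage genes fell to 0.15. The block with a trended and robust variance, added after the data were seen, called 1 gene for MIF and 6 for both proteins, none of them a macrophage gene of the 35. Without all arrays of number 1, also added later, the medians were -0.19, -0.15, -0.07 and 0.29, and Mrc1 with MIF was 0.00. Leaving out single arrays moved the medians over -0.67 to 0.07 for sCD74, -0.44 to 0.14 for MIF, -0.39 to 0.23 for both and 0.01 to 0.71 for the departure.

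Among single genes, leaving out 1 array turned the direction as follows. For sCD74 the ranges were -1.08 to 0.14 for Ly86, -1.33 to 0.27 for Cbr2, -0.99 to 0.21 for Csf1r and -0.65 to 0.32 for Adgre1. For MIF they were -0.88 to 0.21 for Ly86, -0.78 to 0.20 for Tyrobp, -0.71 to 0.29 for Csf1r, -0.71 to 0.08 for Adgre1 and -0.16 to 0.06 for Mrc1. For both they were -0.86 to 0.18 for Ly86, -0.83 to 0.26 for Csf1r, -0.65 to 0.20 for Adgre1 and -0.45 to 0.09 for Folr2. Ccr2 and, in number 3, F13a1 have means below the negative controls, so that only the turn of sign can be read from their fitted values. Between numbers, Ccr2 ran from -0.02 to 0.16 in number 1, and in number 3 against 2 F13a1 ran from -0.30 to 0.07 and Ccr2 from -0.04 to 0.22. Aif1, well above the controls, ran from -0.17 to 0.05 there. Precision is limited by 3 arrays a treatment and, for 6 genes, by signal near the negative controls.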
